A study of Mus musculus with 4 samples.

Results

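Genes of lipid efflux, storage and oxysterol synthesis were followed in mouse peritoneal macrophages with and without Trim24 and with and without IL-4. The set held 9 genes picked by name (Apoe, Abca1, Abcg1, Lpl, Fabp4, Fabp5, Plin2, Lipa and Ch25h), out of 16403 genes listed in the 4 libraries. All 9 were found by their NCBI gene IDs, and all 9 had a mean of at least 0.5 FPKM (fragments per kilobase of transcript, scaled to library size). The rule names the genes and uses no threshold on a measured value.

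The macrophages came from C57BL/6 mice, 6 to 8 weeks of age, that had received 4% thioglycolate into the peritoneum 4 days earlier. Thioglycolate recruits monocyte-derived macrophages, which were enriched by 4 h of adhesion and kept in 0.5% serum. The WT mice carried the intact gene, and the Trim24-deficient mice (TIF1a in the sample labels) had floxed Trim24 removed by a Cre driven from the LysM locus, which acts in macrophages and also in other myeloid cells. Cells of each genotype were left untreated or given mouse IL-4 at 20 ng/mL for 6 h. LysM is Lyz2, the locus that carries the Cre, and its own level was lower in both Trim24-deficient libraries (5193 and 4761 FPKM) than in both WT libraries (11289 and 10811 FPKM).

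Each of the 4 groups was 1 library, and neither the number of mice nor any pooling is stated, so no difference below has a replicate check. The libraries held 11026033 to 11250099 assigned reads, which resolves the abundant genes of this set well and leaves Ch25h near the detection limit, 3 reads being 0.267 to 0.272 CPM (reads scaled to library total). Trim24 was at 2.55 FPKM in untreated and 1.48 FPKM in IL-4-treated WT cells, and at 0.06 and 0.14 FPKM in the deficient cells, so the labels and the gene went together. All 6 macrophage markers had reads in every library and summed to 8282 to 14834 FPKM, most of it Lyz2. In such bulk libraries fewer cells of a type and less RNA per cell cannot be told apart.

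Macrophages take up lipoprotein lipid, hydrolyse it in lysosomes, store the excess as cholesteryl ester and triglyceride in droplets, and export cholesterol to acceptor particles. Oxysterols and other cholesterol derivatives activate the nuclear receptor LXR, which raises transcription of the exporters and of apolipoprotein E, while fatty acid ligands act through PPARs on fatty acid binding proteins, lipoprotein lipase and droplet coat proteins. IL-4 signals through the transcription factor STAT6 and sets macrophages into an alternatively activated (M2) state.

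Sequence upstream of Ch25h, its neighbour Lipa and Abca1 is shown because Ch25h was the member raised most by IL-4, Lipa lies beside it and hardly moved, and Abca1 was the member lowered most. The sequences are from RefSeq on GRCm38.p6, written 5′ to 3′ on the strand of the gene, which is the minus strand for all 3, and end next to the annotated gene. They cover chr19:34475149-34475398 for Ch25h, chr19:34527475-34527724 for Lipa and chr4:53159989-53160145 for Abca1. Capitals mark the letters of the TATA box motif (TATAAA on either strand) wherever they occur, the only searched motif found in these windows.
Ch25h: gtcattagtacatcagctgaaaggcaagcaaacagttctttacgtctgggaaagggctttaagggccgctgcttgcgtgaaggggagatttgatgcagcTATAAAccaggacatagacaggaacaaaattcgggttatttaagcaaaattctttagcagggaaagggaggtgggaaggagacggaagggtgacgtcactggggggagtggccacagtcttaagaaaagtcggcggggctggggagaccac
Lipa: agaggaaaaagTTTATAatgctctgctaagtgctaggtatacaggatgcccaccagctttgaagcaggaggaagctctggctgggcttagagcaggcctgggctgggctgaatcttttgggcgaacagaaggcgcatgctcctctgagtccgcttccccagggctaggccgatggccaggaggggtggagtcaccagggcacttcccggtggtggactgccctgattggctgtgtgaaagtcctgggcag
Abca1: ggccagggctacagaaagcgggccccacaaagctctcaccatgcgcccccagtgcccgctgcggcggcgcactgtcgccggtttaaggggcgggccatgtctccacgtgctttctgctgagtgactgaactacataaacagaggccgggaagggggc

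The search covered the 250 bases before each annotated start. Of the 9 genes, 5 had such a window (Abca1, Plin2, Apoe, Ch25h and Lipa), and Apoe had 3, which makes 7 windows. None of the 7 held the STAT6 motif TTCNNNNGAA, which 5.85% of 32851 mouse promoter windows held on either strand. The AGGTCA receptor site was searched as direct repeats, with 1 base between for PPAR and 4 bases for LXR, and no window held either. Over all windows these repeats were found in 0.0335% and 0.0152%. The SREBP element TCACNCCAC was also in none, against 1.05% of all windows. TATAAA, found in 12.4% of all windows, was present in the windows of Ch25h, Lipa, Abca1 and 1 of the 3 of Apoe. In Ch25h it began 151 bases before the start, and in Lipa 239 bases before the start on the other strand. In Abca1 it began 29 bases before the start, within the 93 bases that a longer annotated form of the gene covers and that are not shown. A match describes the letters in the window, and a missing match says that these letters are not in this window.

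The 9 genes spanned a wide range of expression, and their order per transcript length was nearly fixed. Apoe, the secreted apolipoprotein that accepts cellular cholesterol, was the most abundant member and ranked 7 to 9 of all genes in each library, at 5338 to 5718 FPKM. Fabp5, a cytosolic fatty acid carrier, followed at 1601 to 2256 FPKM. Plin2, which coats lipid droplets (727 to 867 FPKM), and Lipa, the lysosomal acid lipase that frees cholesterol from its esters (703 to 817 FPKM), overlapped over the 4 libraries. Fabp4, the fatty acid carrier best known from adipocytes, ranged from 576 to 715 FPKM and overlapped Lipa. Lpl, the secreted lipase that hydrolyses lipoprotein triglyceride, lay lower at 213 to 487 FPKM. The transporters came next, Abcg1 at 40.4 to 75.9 FPKM and Abca1 at 3.18 to 10.98 FPKM, and Ch25h was last at 0 to 1.68 FPKM. No other neighbours in this order overlapped. Together the 9 genes took 1.53% of reads in untreated WT, 1.40% in IL-4-treated WT, 1.59% in untreated deficient and 1.39% in IL-4-treated deficient cells, with Apoe the main contributor.

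**Figure D1:**
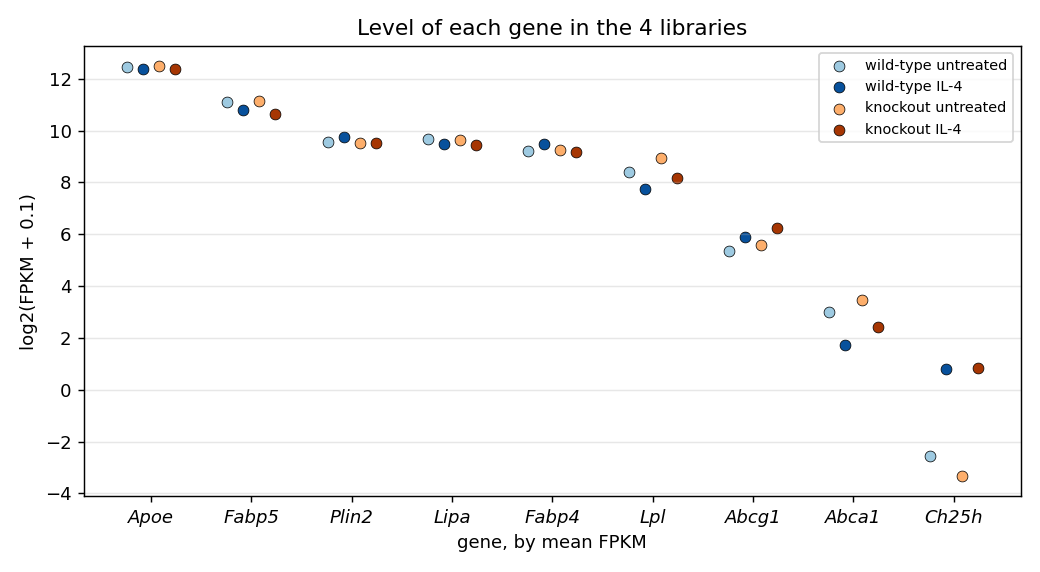
Level of each of the 9 genes as log2(FPKM + 0.1) on the vertical axis, ordered by mean FPKM, with 1 point for each of the 4 libraries. Ch25h, Abca1 and Lpl spread most between libraries, while the 4 points of Apoe lie between 5338 and 5718 FPKM.

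To determine which of these genes respond to IL-4, the treated library was compared with the untreated library of the same genotype. A gene was called where both of the following held. Fisher's exact test, two-sided and on the expected counts, gave a Benjamini-Hochberg adjusted p below 0.05 over all genes. The gene's FPKM + 0.1 also differed by more than 1.5-fold. These are the cutoffs in the study's methods, while its list of IL-4-regulated genes used a larger fold and a looser false-discovery rate. In WT cells 1 member was called higher (Ch25h), where 4.91% of 15593 genes were called higher, and 2 were called lower (Abca1 and Lpl), where 7.88% were. In Trim24-deficient cells 2 were called higher (Ch25h and Abcg1), against 5.29% of 15738 genes, and 2 lower (Abca1 and Lpl), against 4.03%. Ch25h, Abca1 and Lpl thus went the same way in the 2 genotypes and were called in each, and these pairs share no library. Over all 16403 genes listed, 533 were called higher in both genotypes and 436 lower in both. Over the 9 genes the log2 ratios had a median of -0.09 in each genotype. For all genes of at least 0.5 FPKM it was -0.01 in WT (11387 genes) and 0.01 in deficient cells (11381 genes). Such p-values compare pairs of libraries and carry counting error only. At a set biological coefficient of variation of 0.2 between libraries, by edgeR's exact test, the calls of Abca1 and Lpl in both genotypes and of Abcg1 in deficient cells were lost, and Ch25h was the only member called.

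The cholesterol exporters moved in opposite directions with IL-4. Abca1, which loads cholesterol and phospholipid onto lipid-poor apolipoprotein A-I, is on chromosome 4 (53030789 to 53159988). It was at 7.94 FPKM in untreated and 3.18 FPKM in IL-4-treated WT cells, and at 10.98 and 5.32 FPKM in the deficient cells. Both IL-4 libraries were thus below both untreated libraries. The log2 ratio was -1.29 ± 0.09 (SE, counting error) in WT (adjusted p = 3.7e-53, Fisher's exact test) and -1.03 ± 0.07 in deficient cells (adjusted p = 2.9e-50, Fisher's exact test), that is 2.45-fold and 2.04-fold lower. Abcg1, which exports cholesterol to mature high-density lipoprotein, lies on chromosome 17 (31057694 to 31117984). It went from 40.4 to 59.6 FPKM in WT and from 47.6 to 75.9 FPKM in deficient cells. Both IL-4 libraries were above both untreated ones. The 1.59-fold difference in deficient cells passed the call (log2 ratio 0.67 ± 0.03), and the 1.47-fold difference in WT was just short of the 1.5-fold threshold (0.56 ± 0.04). The ratio of Abcg1 to Abca1, each per length, was 5.09 in untreated and 18.7 in IL-4-treated WT cells, and 4.34 and 14.3 in deficient cells.

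The IL-4 ratios depended on transcript length. Over 10443 genes, Spearman's rho between the log2 IL-4 ratio and transcript length was -0.37 in WT and -0.11 in deficient cells, given as a description across genes that share their libraries. The Abca1 transcript measures 10260 bases and that of Abcg1 5821 bases, so Abca1 went with the trend and Abcg1 against it. With a smooth curve over length removed, Abca1 remained called lower, at -0.75 in WT and -0.88 in deficient cells, and Abcg1 was called higher in both, at 0.85 and 0.73. Opposite directions for the exporters were thus also found without the length trend. The part of library preparation in this trend was not tested.

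Lpl was lower with IL-4 in both genotypes. It lies on chromosome 8 (68880555 to 68906932) and was at 342 FPKM in untreated and 213 FPKM in IL-4-treated WT cells. In deficient cells it was at 487 and 285 FPKM. Both IL-4 libraries lay below both untreated ones. The log2 ratio was -0.69 ± 0.02 in WT and -0.77 ± 0.02 in deficient cells, or 1.61-fold and 1.71-fold lower. With the length curve removed the WT ratio was -0.58, at the edge of the 1.5-fold threshold and no longer called, and that in deficient cells was -0.76. The expected counts of Lpl were not whole in any library, so some of its reads were divided between genes by the RSEM model, as were some of Fabp5 in IL-4-treated deficient cells.

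Ch25h encodes cholesterol 25-hydroxylase, which makes 25-hydroxycholesterol from cholesterol. It had 1 read in untreated WT, 25 reads in IL-4-treated WT, 0 in untreated deficient and 25 in IL-4-treated deficient cells (0.07, 1.64, 0 and 1.68 FPKM). Reads were thus nearly confined to the IL-4 libraries, at the same number in both genotypes. In WT the share of reads was 24.5 times higher with IL-4, with an exact 95% interval of 4.01 to 1007 that covers counting error only (adjusted p = 5.5e-06, Fisher's exact test). In deficient cells it was 8.34 times the share of 3 reads, taken as the limit that a count of 0 allows (adjusted p = 3.2e-07, Fisher's exact test). That value leaves out the counting error of the 25 reads. The size of the response cannot be told more closely at this depth, and even with IL-4 the gene ranked 9654 and 9747 by FPKM in the 2 libraries. Lipa, the nearest gene, with 17.2 kb between them on chromosome 19 and no annotated gene in between, was at 817 and 721 FPKM in WT and 791 and 703 FPKM in deficient cells. Its log2 ratios of -0.18 ± 0.01 and -0.17 ± 0.01 were nearly equal and under the fold threshold.

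The fatty acid binding proteins are listed here side by side, since Fabp5 and Fabp4 lie 188 kb apart on chromosome 3. Fabp5 was at 2207 FPKM untreated and 1796 FPKM with IL-4 in WT, and at 2256 and 1601 FPKM in deficient cells. Both IL-4 libraries were below both untreated ones, by log2 ratios of -0.30 ± 0.01 and -0.49 ± 0.01 that stayed under the fold threshold. Fabp4 was at 599 and 715 FPKM in WT and at 613 and 576 FPKM in deficient cells. It was higher with IL-4 in WT (log2 ratio 0.25 ± 0.03) and lower in deficient cells (-0.09 ± 0.03), neither past the fold threshold. The level of Fabp5 over that of Fabp4 was 3.68 in both untreated libraries, 2.51 in IL-4-treated WT and 2.78 in IL-4-treated deficient cells.

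Plin2 and Apoe differed little between libraries. Plin2 was at 750 FPKM untreated and 867 FPKM with IL-4 in WT, and at 731 and 727 FPKM in deficient cells. The IL-4-treated WT library stood above the other 3, which lay close together. Its log2 ratio was 0.21 ± 0.02 in WT and -0.01 ± 0.02 in deficient cells. A RefSeq pseudogene, Gm12551, overlaps Plin2 and had no reads of its own in the tables, and no other member overlaps an annotated gene. Apoe was at 5690 and 5338 FPKM in WT and at 5718 and 5371 FPKM in deficient cells, log2 ratios of -0.09 ± 0.01 in both. The Plin2 difference in deficient cells did not pass the counting test (adjusted p = 0.82, Fisher's exact test), and the other 3 passed it without reaching 1.5-fold.

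**Figure D2:**
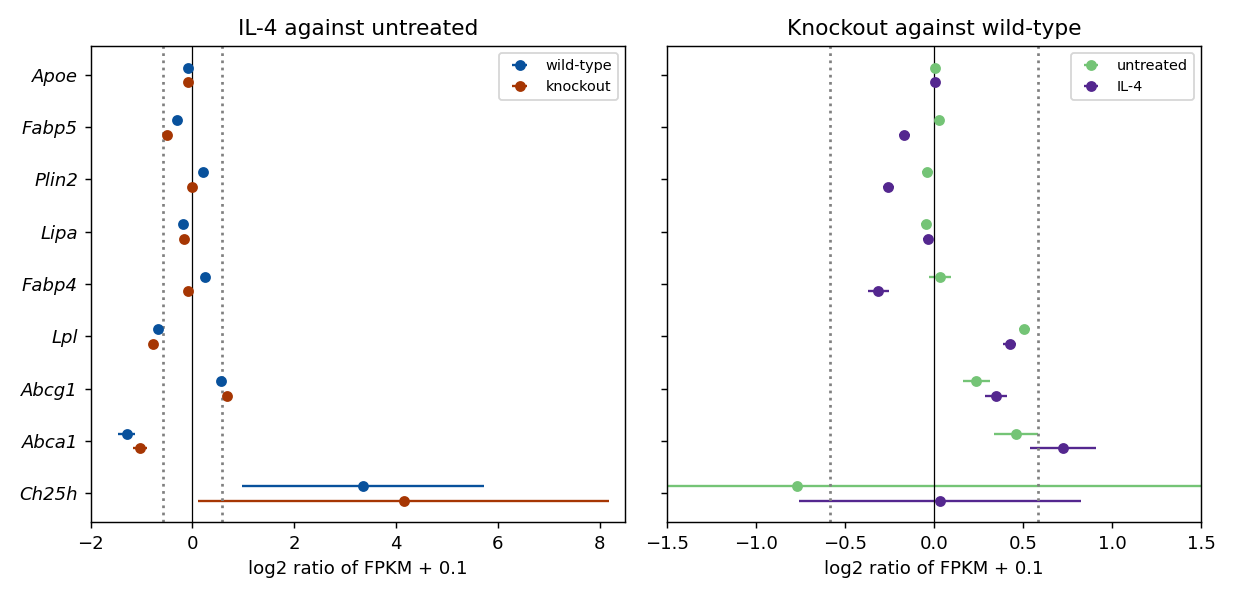
Log2 ratio of FPKM + 0.1 for each gene, IL-4 against untreated in each genotype (left) and Trim24-deficient (knockout) against WT in each treatment (right). Points are ratios, bars are 95% counting intervals, dotted lines mark 1.5-fold, and the bar of Ch25h in the untreated genotype comparison runs off the axis. Abca1 and Lpl lie left of the threshold in both IL-4 comparisons and Abca1 alone lies right of it in a genotype comparison, at 0.72.

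All 4 libraries were also fitted together with additive terms for IL-4 and genotype, which leaves 1 residual degree of freedom and takes the IL-4 effect to be equal in both genotypes. With the quasi-likelihood test of edgeR, and p-values adjusted by the Benjamini-Hochberg procedure over 11791 genes, 2 members were higher with IL-4 (12.0% of genes were) and 3 were lower (13.3% of genes were). Those higher were Ch25h (log2 effect 5.33 ± 0.75 SE, edgeR adjusted p = 0.00011) and Abcg1 (0.63 ± 0.09, edgeR adjusted p = 7.9e-05). Those lower were Abca1 (-1.16 ± 0.10, edgeR adjusted p = 1.1e-06), Lpl (-0.72 ± 0.09, edgeR adjusted p = 3.3e-05) and Fabp5 (-0.39 ± 0.09, edgeR adjusted p = 0.0075). Each SE here is the size of the effect divided by the square root of the F statistic of its test. The effect of Ch25h rests on few reads and depends on the prior count of the fit. Its SE is below the counting errors of the pairs (1.21 in WT and 2.06 in deficient cells), so it understates the uncertainty. Lipa (edgeR adjusted p = 0.20), Plin2 (0.43), Fabp4 (0.53) and Apoe (0.59) did not pass.

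To assess whether Trim24 loss alone alters these genes, the untreated libraries were compared. None of the 9 was called in either direction, while in the whole table of 15623 genes 0.839% were higher and 0.742% lower in Trim24-deficient cells by the same rule. By adjusted p alone, without the fold threshold, 3 were higher (Lpl, Abca1 and Abcg1) and 1 was lower (Lipa), beside 3.66% and 2.97% of all genes. That test reaches smaller differences in genes with more reads. Lpl was at 342 FPKM in WT and 487 FPKM in deficient cells, a log2 ratio of 0.51 ± 0.02 or 1.42-fold. Abca1 was at 7.94 and 10.98 FPKM (0.46 ± 0.06) and Abcg1 at 40.4 and 47.6 FPKM (0.24 ± 0.04). Lipa differed by -0.05 ± 0.01, and Apoe, Fabp4, Fabp5 and Plin2 were each within 0.04 of 0 on the log2 scale.

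With IL-4, 1 member was called higher in deficient cells (Abca1) and none lower, while in the whole table of 15573 genes 3.05% were higher and 0.764% lower by the same rule. By adjusted p alone 3 were higher and 4 lower, beside 12.1% and 7.78% of all genes. Abca1 was at 3.18 FPKM in WT and 5.32 FPKM in deficient cells, a log2 ratio of 0.72 ± 0.09 (1.65-fold, adjusted p = 1.1e-13, Fisher's exact test). Lpl was at 213 and 285 FPKM (0.43 ± 0.02) and Abcg1 at 59.6 and 75.9 FPKM (0.35 ± 0.03). These 3 genes were thus higher in deficient cells in both treatments, and the genotype pairs share no library. Whether both libraries of a genotype came from the same mice is not stated. On the low side Fabp4 was at 715 and 576 FPKM (-0.31 ± 0.03), Plin2 at 867 and 727 FPKM (-0.26 ± 0.02) and Fabp5 at 1796 and 1601 FPKM (-0.17 ± 0.02). Lipa (-0.04) and Apoe (0.01) hardly differed, and the sign of Apoe turned under TMM scaling (-0.01). For Ch25h, with 25 reads in each library, the share in deficient cells was 1.02 times that in WT, and the exact 95% interval of 0.562 to 1.85 leaves room for a moderate difference either way.

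The genotype ratio with IL-4 followed transcript length, and several members lay along that trend. Spearman's rho over 10443 genes was 0.52 with IL-4 and 0.13 without. The members with the longest transcripts (Abca1, Abcg1 and Lpl, with 10260, 5821 and 4049 bases) were higher in deficient cells. Those with the shortest (Fabp4, 646 bases, and Fabp5, 969 bases) were lower. With the curve over length removed, Abca1 was at 0.25 and lost its call, Abcg1 at 0.10, Fabp4 at -0.13 and Fabp5 at -0.0041. Lpl kept 0.33 and Plin2 -0.19. In the untreated pair, where the curve is flatter, Lpl was at 0.51, Abca1 at 0.38 and Abcg1 at 0.22 after removal. Genotype, library and length trend cannot be told apart in the IL-4-treated pair.

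**Figure D3:**
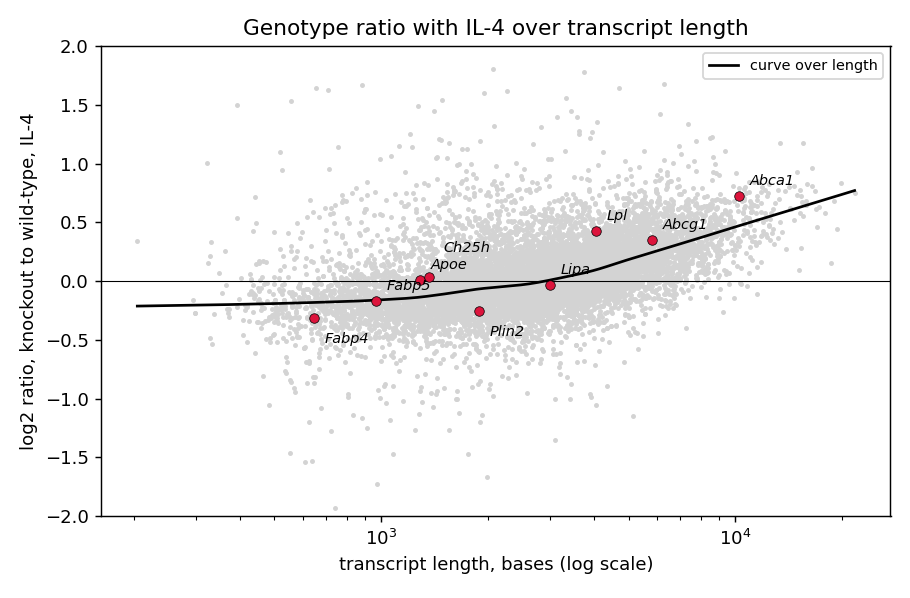
Log2 ratio of Trim24-deficient (knockout) to WT cells with IL-4 (vertical) against transcript length in bases (horizontal, log scale) for genes of at least 1 FPKM in grey, the 9 genes in red (Ch25h, at a mean of 0.85 FPKM, included) and the smooth curve in black. Abca1, at 10260 bases, lies 0.25 above the curve, and Fabp5 lies on it. Genes beyond the vertical limits are not drawn.

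In the additive edgeR fit, 2 members had a genotype effect, both higher in deficient cells, where 1.29% of genes were higher and 0.373% lower. Abca1 had a log2 effect of 0.59 ± 0.10 (edgeR adjusted p = 0.0074) and Lpl of 0.47 ± 0.09 (edgeR adjusted p = 0.013). Abcg1, at 0.29 ± 0.09, did not pass (edgeR adjusted p = 0.11). No member was lower by edgeR, 0 also at an unadjusted p under 0.05, and 0 by DESeq2 and by limma. With DESeq2 2 members were higher, with limma 0, and with every gene that had a read in the edgeR fit 0. The 2 libraries of a genotype stand in for replicates here, and whether they came from different mice is not stated. The p-values for genotype may thus lack the spread between mice.

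Whether Trim24 loss changed the size of the IL-4 response was read from the difference of the log2 responses, deficient minus WT, computed from read shares with 0.5 reads added rather than from FPKM, with 95% intervals for counting error. It was -0.35 (-0.43 to -0.26) for Fabp4, -0.22 (-0.27 to -0.18) for Plin2 and -0.20 (-0.24 to -0.16) for Fabp5. For Abca1 it was 0.27 (0.05 to 0.49), its fall being the smaller in deficient cells, and for Abcg1 0.11 (0.01 to 0.21). With the length curve removed Abca1 went to -0.12 and Abcg1 to -0.11, so their sign depends on that step, while Fabp4 (-0.21), Plin2 (-0.18) and Fabp5 (-0.07) kept theirs, Fabp5 at a much smaller size. For Lpl the difference was -0.08 (-0.13 to -0.04), and -0.18 with the curve removed. For Apoe (0.00082) and Lipa (0.01) the intervals held 0, but Apoe went to 0.10 with the curve removed. For Ch25h the interval was too wide to read (-3.07 to 6.30). With 1 library per group this interaction leaves no residual degree of freedom and was not tested beyond counting error.

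**Figure D4:**
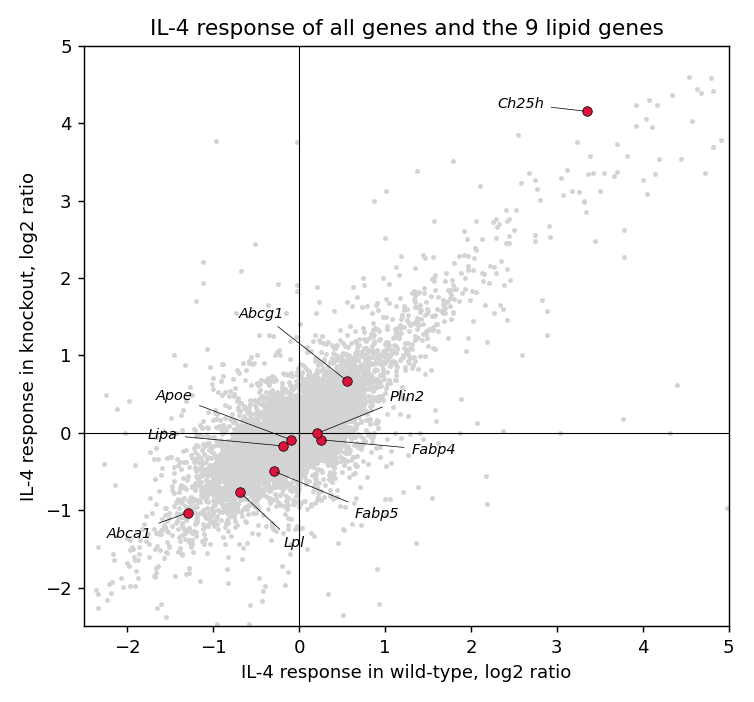
IL-4 response in WT (horizontal) against Trim24-deficient cells (vertical), both as log2 ratios of FPKM + 0.1, for genes of at least 0.5 FPKM in grey and the 9 genes in red. Ch25h stands at the upper right, Abca1 (-1.29 and -1.03) at the lower left, and Fabp4 and Plin2 lie right of and just under the origin. Genes beyond the axis limits are not drawn.

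Other genes of the same pathways were read from 6 lists of which 67 genes had a mean of at least 0.5 FPKM. In WT 3 of the 67 were called higher with IL-4 and 8 lower, beside 4.91% and 7.88% of all genes with a read. In deficient cells 3 were called higher and 7 lower, beside 5.29% and 4.03%. The median log2 ratios of the 67 were -0.04 in WT and -0.03 in deficient cells. The IL-4 calls of the single lists below stand beside the same shares. Pla2g15, a lysosomal phospholipase, rose from 72.4 to 148 FPKM in WT and from 78.4 to 151 FPKM in deficient cells. The genes lowered in both genotypes included Mgll, the monoacylglycerol lipase (23.1 to 11.3 and 35.8 to 16.9 FPKM), Osbpl8, an oxysterol-binding protein relative (79.8 to 41.5 and 85.5 to 49.0 FPKM), and Lpin2, a phosphatidate phosphatase (6.28 to 3.50 and 6.70 to 4.19 FPKM). The other genes called higher, named after their values were seen, were Abcg2 in WT, Osbpl5 in deficient cells and Abcg3 in both.

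Of the LXR targets outside the set, 10 genes were measured at this level, 0 were called higher and 1 was called lower with IL-4 in each genotype, which was Mylip (named after its values were seen), the E3 ligase that degrades the LDL receptor. It was at 5.96 and 2.88 FPKM in WT and 5.15 and 2.99 FPKM in deficient cells. Nr1h3, which encodes LXR alpha, was at 26.1 and 32.9 FPKM in WT and 28.2 and 31.3 FPKM in deficient cells, and Srebf1 stayed between 17.5 and 18.3 FPKM. Smpdl3a, the most abundant of this list, was at 252 and 184 FPKM in WT and 227 and 171 FPKM in deficient cells, under the fold threshold.

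In droplet and neutral lipid turnover the calls among 13 genes were 0 higher and 2 lower in each genotype (Mgll and Lpin2). Soat1, which esterifies cholesterol, was the most abundant there, at 148 and 103 FPKM in WT and 145 and 112 FPKM in deficient cells. In fatty acid uptake and activation 0 of 11 were called higher, 1 was lower in WT (Fabp3) and 2 in deficient cells (Fabp7 and Angptl4), these names being given after their values were seen. Acsl5, the most abundant, was at 48.5 and 66.2 FPKM in WT and 48.4 and 60.8 FPKM in deficient cells. In lysosomal hydrolysis and sterol egress Pla2g15 was the only 1 of 12 called, and Psap, the most abundant, ranged from 8640 to 9549 FPKM.

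In oxysterol synthesis and sensing 1 of 11 genes was lower in each genotype (Osbpl8). Among 10 other lipid transporters and efflux partners 2 were higher and 3 lower in WT, and 1 higher and 1 lower in deficient cells. Those lower besides Scarb1, named after their values were seen, were the Abca1 relatives Abca9 in both genotypes and Abca7 in WT. Abca9 was at 3.34 and 1.60 FPKM in WT and 3.84 and 2.40 FPKM in deficient cells. Between genotypes with IL-4, Abca9 (log2 ratio 0.56) and Abca7 (0.46) were also higher in deficient cells without a call, and 7 of the 10 were above 0. Scarb1, a receptor for high-density lipoprotein, was called lower in WT (37.95 to 25.01 FPKM) and not in deficient cells (35.4 to 27.2 FPKM), and that difference in call was not tested. Between genotypes with IL-4, 0 of the 67 were called in either direction, beside 3.05% of all genes higher and 0.764% lower. Without IL-4, 2 of the 67 were called higher in deficient cells and 2 lower, beside 0.839% and 0.742% of all genes. Those higher were Mgll and Abcg2 and those lower Fabp3 and Cav1, named after their values were seen.

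The genes whose pattern lay nearest to a member called in both genotypes were found by Euclidean distance of centred log2(FPKM + 0.1) over the 4 libraries among 7464 genes of at least 5 FPKM. For Abca1 they were Siglec1, a sialic acid-binding macrophage receptor (distance 0.11), and Phlpp1, a protein phosphatase (0.16). Siglec1 was at 11.3 and 4.75 FPKM in WT and 17.0 and 8.37 FPKM in deficient cells. For Lpl they were Pianp and Aig1 (0.09 each), with Pianp at 41.4 and 24.1 FPKM and at 59.7 and 33.0 FPKM. For Ch25h they were Olfm1 (0.48), at 2.74 and 29.6 FPKM and at 2.35 and 29.2 FPKM, and Scimp (0.57), an adaptor protein. With 4 points a pattern holds little detail, and many genes can lie as near.

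Several members are also strong in adipocytes, and cells other than macrophages could reach these cultures. Of 6 adipocyte markers, Plin1, Lep and Cidec were at 0 in all 4 libraries, while the list summed to 0.16 FPKM in untreated WT, 10.1 in IL-4-treated WT, 0.33 in untreated deficient and 9.63 in IL-4-treated deficient cells. Nearly all of the sum with IL-4 was Adipoq (10.1 and 9.53 FPKM). Mesothelial and fibroblast markers (8 of 8 with reads, Dcn the most abundant) summed to 34.8, 30.5, 17.9 and 30.4 FPKM in untreated WT, IL-4-treated WT, untreated deficient and IL-4-treated deficient cells. The untreated deficient library was the lowest in these and the highest in Lpl and Abca1. With IL-4 the sums were nearly equal (30.5 and 30.4 FPKM), while both genes were higher in deficient cells. A relation between these sums and the members was not tested. Endothelial markers (4 of 6, Kdr, with Tek and Emcn at 0) summed to 1.81 to 3.50 FPKM, and neutrophil markers (4 of 7, S100a8, with S100a9, Ly6g and Camp at 0) to 9.49 to 14.1 FPKM. Lymphocyte (Cd79a), dendritic (Ccr7) and eosinophil and mast cell markers (Tpsb2) each summed to under 6 FPKM, at 3.20 to 5.36, 2.69 to 2.91 and 2.66 to 5.99. Markers of resident large peritoneal macrophages (6 of 6, Cd5l) summed to 15.9 to 21.6 FPKM. The part of these cells in the levels of the members was not tested.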

How the data were processed

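RNA of 4 macrophage cultures, 1 library per group, was sequenced by the authors. Per the submitters' processing notes and the study's methods, reads were mapped to GRCm38 (mm10) with Bowtie and quantified with RSEM, versions not given in the sources used here. The deposited tables hold the expected count of each gene (reads assigned by RSEM, not whole for 22.2% to 22.8% of genes) and the authors' FPKM, with an effective length. Unlisted genes were set to 0. Use of strand in counting is not stated. Symbols and positions came from RefSeq on GRCm38.p6 (16365 of 16403 IDs matched, 38 did not).

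Expected counts were rounded and compared between 2 libraries by Fisher's exact test (scipy 1.17.1), adjusted over all genes with a read. Log2 ratios are of FPKM + 0.1, and their SE comes from the reads with 0.5 added. All 4 libraries were fitted with edgeR 4.0.16 (R 4.3.3, TMM, filterByExpr, additive terms). The scripts were tested on simulated data. For the length trend, genes with transcripts from 200 bases and a mean from 1 FPKM gave each library a lowess curve (fraction 0.3, statsmodels 0.14.6) over log2 length. Confidence intervals are 95% and cover counting error only, as each group was 1 library. They treat reads as independent molecules, which reads are not, so they may be too narrow. The floor of a count of 0 was 3 reads.

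The members and all lists were chosen with earlier results of these data known. Named besides the 9 members were Trim24, the most abundant gene of each list, Nr1h3 and Srebf1, of the other lipid lists up to 4 genes per direction called in both pairs at a mean of at least 5 FPKM, and the 2 nearest genes of each member called in both pairs. Motifs were searched on both strands. Alternatives were pseudocounts of 0.01 and 1, a minimum of 1 FPKM, TMM scaling, a fold of 2, edgeR's exact test at a set biological coefficient of variation (BCV, 0.2), removal of the length curve, upper-quartile scaling, every gene with a read, DESeq2 1.42.0 and limma 3.58.1.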

Additional observations from a re-analysis of the deposited data

Results flagged for a closer look

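The IL-4 responses of Fabp4 and Plin2 were above 0 in WT and below 0 in Trim24-deficient cells, which is why they are listed here. For Fabp4 the log2 response, from read shares with 0.5 reads added, was 0.26 in WT and -0.09 in Trim24-deficient cells, a difference of -0.35. For Plin2 it was 0.21 and -0.00885, a difference of -0.22, but the response in deficient cells did not pass Fisher's exact test (adjusted p = 0.82), so no opposite sign is shown for Plin2. Neither response passed the 1.5-fold threshold in either genotype, both differences rest on 1 library per group, and they were not tested against the spread between replicates.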

How the results depend on the processing

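No paired analysis was possible because each group holds 1 library, and for the same reason no replicate could be left out. Of 248 values of single members under the alternatives, 233 kept their direction and their side of the threshold. Another 12 fell short of it, 2 newly passed it and 1 turned. The 1 that turned was Apoe between genotypes with IL-4 by TMM scaling (-0.0108). Most of the 248 belong to members not called in the main setting, which had no call to lose. All 12 losses were of calls of Abca1, Lpl and Abcg1. Ch25h drops out at the minimum of 1 FPKM, so it has no value there and is not counted among the losses. The members called with IL-4 then went from 3 to 2 in WT and from 4 to 3 in deficient cells.

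Counts of genes called depended most on the error model. At a set BCV of 0.2, the IL-4 response gave 258 genes in WT and 272 in deficient cells (1994 and 1466 with counting error alone) and 1 member in each, Ch25h, with Abca1 and Lpl no longer called. The genotype comparison gave 15 genes without and 21 with IL-4 (247 and 594 with counting error alone) and 0 members with IL-4. At a fold of 2 these counts were 861, 711, 128 and 171 genes, with 2 members in deficient cells for IL-4 and 0 between genotypes with IL-4. A pseudocount of 1 gave 156 genes between genotypes without and 322 with IL-4. Removal of the length curve left 293 genes and 0 members between genotypes with IL-4, and changed the IL-4 calls in WT from 766 higher and 1228 lower to 790 and 786. 

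In the joint fit, the IL-4 effect was called for 2987 genes and 5 members by edgeR, for 1675 genes with every gene that had a read, for 1262 by DESeq2, and for 1116 genes and 3 members by limma. The genotype effect was called for 196 genes (152 higher, 44 lower) and 2 members by edgeR. It was called for 494 with upper-quartile scaling (331 higher, 163 lower), 624 with the length curve as an offset (399 and 225), 24 with every gene that had a read (0 members), 68 by DESeq2, and 4 by limma (0 members). The cause of these changes was not tested. Depth limits Ch25h alone among the members.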

Other observations

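Adipoq, which encodes the adipokine adiponectin, appeared with IL-4 in both genotypes. It had 0 reads in untreated WT, 139 in IL-4-treated WT, 1 in untreated deficient and 128 in IL-4-treated deficient cells. The share of reads with IL-4 in WT was 45.5 times that of a floor of 3 reads, which leaves out the counting error of the 139 reads. In deficient cells the share of reads was 128 times higher with IL-4 (exact 95% interval for counting error, 22.6 to 5096). Between genotypes with IL-4 it was 0.94 times as high (0.733 to 1.20). Plin1, Lep and Cidec had no read in any library.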
